A study of Mus musculus with 17 samples.

Results

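The genes described here are 10 transcription factors of the ETS family: Fli1, Erg, Ets1, Ets2, Elf1, Elf2, Elf4, Etv6, Gabpa and Spi1. They were taken by gene symbol, all 10 were found among the 47069 genes listed, and each was followed by its Ensembl identifier through 3 tables of RNA sequencing counts. The cells were mouse fetal liver cells of embryonic day E12.5 to E13.5 from a B6J.129(Cg) strain whose allele at Gt(ROSA)26Sor, tm1.1 of Fezh/J, carries CAG-cas9* with EGFP, so that the cells make Cas9 and EGFP.

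There were 17 libraries in 6 groups. Of these, 5 groups carried sgGata1, a guide RNA against Gata1 after which the study calls the cells Gata1s, for the shortened GATA1 protein. Their second transgene was LUC (luciferase control, 3 libraries) or Arid3a (3), each with doxycycline at 1 µg/mL for 48 h, or sh-ctrl (control hairpin, 3), shArid3a (hairpin against Arid3a, 2, numbered 1 and 3) or miR-125b (3), each with doxycycline at 1 µg/mL for 10 days. The WT group (3) carried sgLuc and shLuc and received no doxycycline. LUC and Arid3a shared a table, sh-ctrl, shArid3a and miR-125b shared another, and WT had its own. Guide, doxycycline, second transgene and table therefore all changed together between WT and the rest and cannot be told apart, so WT levels are described without a test.

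ETS factors share a DNA-binding domain that recognises sites with a GGAA core. In blood formation Fli1 and Erg act in stem cells and megakaryocytes, and Spi1 (PU.1) directs the myeloid and B-cell lines. Etv6 is a repressor needed by stem cells and platelet production, Gabpa binds with a partner subunit at housekeeping promoters, and Ets1 is best known from lymphocytes. Elf1, Elf2 and Elf4 form a subfamily of their own, and Ets2 is a close relative of Ets1. GATA1 works with Fli1 in megakaryocytes and opposes Spi1 in the erythroid line.

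Since miR-125b is 1 of the transgenes, its mature sequence is shown with the places in the members' 3′ untranslated regions that can pair with its seed, bases 2 to 8, which are in capitals. The microRNA is from RefSeq (GRCm38.p6) and the sites were found in GENCODE M21 transcripts on GRCm38, where capitals mark the match.
mmu-miR-125b-5p: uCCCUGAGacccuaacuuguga
Ets1, chr9:32756391-32756420, + strand: caaaatatttaggagctgCTCAGGGAgtgt
Ets2, chr16:95720290-95720318, + strand: tgtgtcgggtgggcagggCTCAGGGcaat
Etv6, chr6:134270056-134270084, + strand: aaacaaaaaatgccttttCTCAGGGccag
The motifs searched on the transcript strand were CTCAGGGA (8mer), CTCAGGG (7mer-m8) and TCAGGGA (7mer-A1), and an 8mer also contains both shorter motifs. Ets1 held the 8mer, and Ets2 and Etv6 each held a 7mer-m8. The other 7 members held none of these letters in their annotated 3′ untranslated regions. Any match was found in 3 of the 10 members and in 27.1% of the 11522 tested genes with such a region, and the 8mer in 6.87% of those genes. A match describes letters and does not show that the microRNA binds there.

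On GRCm38 the members lie on 7 chromosomes. Fli1 (ENSMUSG00000016087) lies at chr9:32422204-32542861 and Ets1 (ENSMUSG00000032035) next to it at chr9:32636221-32757820. Erg (ENSMUSG00000040732) at chr16:95359169-95586593 and Ets2 (ENSMUSG00000022895) at chr16:95702075-95721051 are neighbours in the same way, and Gabpa (ENSMUSG00000008976) lies on the same chromosome at chr16:84834925-84863779. Spi1 (ENSMUSG00000002111) lies at chr2:91082390-91115756, Etv6 (ENSMUSG00000030199) at chr6:134035700-134270158 and Elf4 (ENSMUSG00000031103) at chrX:48411046-48463132. Elf1 (ENSMUSG00000036461) lies at chr14:79481194-79582476 and Elf2 (ENSMUSG00000037174) at chr3:51252720-51340663. On the opposite strand Gabpa overlaps Atp5j, and Elf1 overlaps Wbp4 and Gm27857. Fli1, Ets1, Elf2 and Etv6 also overlap genes there, all with Gm or Rik names. Fli1, Elf2 and Etv6 overlap genes with Gm names on their own strand as well. Erg, Ets2, Elf4 and Spi1 overlap none. The use of strand in counting is not given in the sources used here, so the values of the overlapping members are uncertain to that extent.

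Between 31339238 and 38678649 counts stood behind each LUC or Arid3a library, between 31992089 and 40859301 behind each hairpin or miR-125b library, and between 16362439 and 19212193 behind each WT library. Levels are given in CPM, read counts scaled by library total and by TMM within each table. Arid3a itself was checked first. It lay between 58.3 and 80.1 CPM in the libraries labelled Arid3a and between 64.0 and 70.1 CPM in LUC (log2 fold change 0.08, SE 0.12, adjusted p = 0.737). Counts of the Arid3a gene were thus not higher in the libraries labelled Arid3a. Whether reads from the transgene are counted in that gene was not tested, so this does not show whether the transgene was expressed. The hairpin lowered Arid3a against sh-ctrl (log2 fold change -1.43, SE 0.20, adjusted p = 0.0368), and so did miR-125b (-2.56, SE 0.18, adjusted p = 0.000282). The spread between libraries may be technical, because nothing in the labels says that they came from separate animals or cultures.

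Compared per kilobase of exon, Spi1 was the most abundant of the 10 in WT at 106.5 CPM per kb, followed by Elf1 at 57.3, Fli1 at 38.6, Etv6 at 38.3 and Erg at 25.5 CPM per kb. In LUC the order began with Elf1 at 70.8 CPM per kb, then Fli1 at 31.7 and Etv6 at 27.5, and Spi1 stood seventh of 10 at 7.12 CPM per kb. Spi1 made up 33.0% ± 6.31 (SD, n = 3) of the summed level per kb in WT and 3.97% ± 0.600 (SD, n = 3) in LUC. Among the groups of 10 days, its share was 9.45% ± 2.57 in sh-ctrl and 15.9% ± 2.996 in miR-125b (SD, n = 3 each). In shArid3a it was 10.99% ± 1.96 (SD, n = 2). Differences in share were not tested. The level of Spi1 in miR-125b did not pass the edgeR quasi-likelihood test against sh-ctrl (adjusted p = 0.185). The share of Elf1 was 17.6% in WT and between 28.9% and 39.4% in the 5 Gata1s groups. Fli1 held between 17.6% and 20.5% in each Gata1s group and 11.9% in WT. The summed level of the 10 was 324.5 ± 15.8 CPM per kb in WT and from 121.6 to 200.4 CPM per kb in the Gata1s groups.

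**Figure D1:**
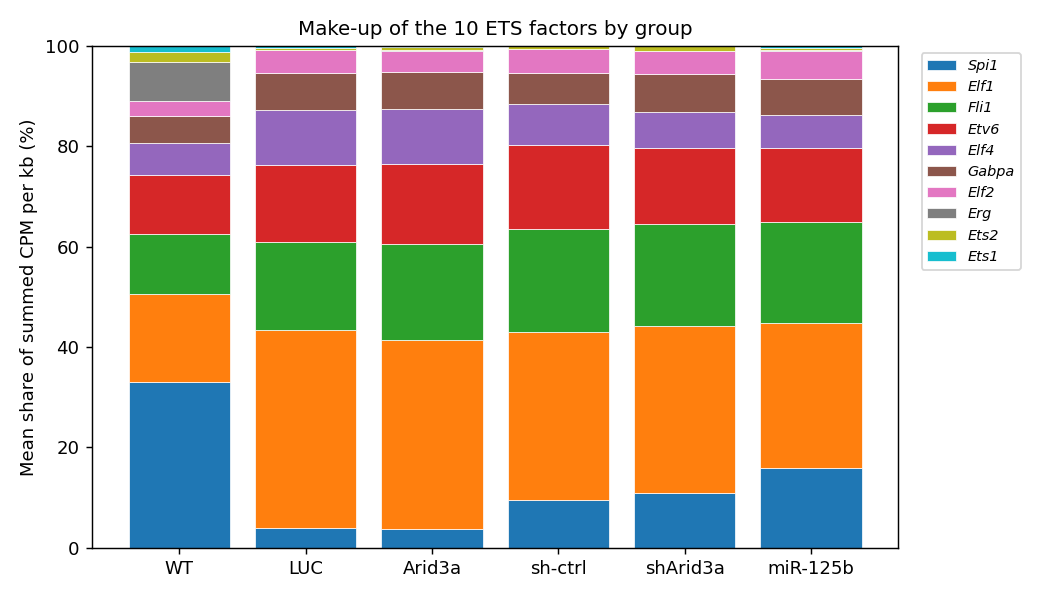
Share of each member in the summed level per kb of the 10 ETS genes, in percent, by group (mean over libraries). Spi1 is the largest part in WT at 33.0%, and Elf1 is the largest part in each Gata1s group, from 28.9% to 39.4%.

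In 5 members, Erg, Ets1, Ets2, Elf2 and Spi1, all 3 WT libraries lay above all 14 Gata1s libraries. Elf2 lost this order when the 3 tables were scaled together. Erg stood farthest apart. It was at 86.7, 84.8 and 93.2 CPM in WT, from 1421 to 1792 counts. Of the 14 Gata1s libraries, 12 held 14 or fewer Erg counts, 3 of them none, and the remaining 2 held 73 counts each. A library with 0 counts allows up to 3 counts, which is 0.0879 CPM in sh-ctrl 2, 0.0815 CPM in shArid3a 1 and 0.0758 CPM in miR-125b 3 (counting error only).

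Those 2 libraries with 73 Erg counts were Arid3a 1 at 2.01 CPM and miR-125b 1 at 2.33 CPM. Every other Gata1s library was at or below 0.451 CPM. Of the 8 listed mast cell and basophil markers, 3 were highest among the Gata1s libraries in the same 2 libraries, a feature singled out after the values were seen. Cpa3, a mast cell protease, was at 150.8 and 113.0 CPM there, Fcer1a, a chain of the IgE receptor, at 11.9 and 33.0 CPM, and Ms4a2, another chain of that receptor, at 3.64 and 9.21 CPM.

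The other 5 markers did not share this pattern. The proteases Mcpt8, Prss34 and Tpsb2 were highest in miR-125b 1, at 43.7, 60.1 and 31.5 CPM, but were at 0, 0.193 and 2.20 CPM in Arid3a 1. Tpsb2 was nearly as high in sh-ctrl 1 and sh-ctrl 3, at 30.1 and 27.5 CPM, where Erg was at 0.282 and 0.0732 CPM. Kit, the stem cell factor receptor, was the lowest of its group in both libraries, at 34.4 CPM in Arid3a 1 and 31.6 CPM in miR-125b 1. The summed list was 1015 CPM in Arid3a 1, of which 811.9 CPM was Gata2, a factor also made by progenitors and megakaryocytes. The sum was 541 CPM in miR-125b 1 and as high in LUC 3 at 544 CPM, where Erg was at 0.451 CPM. The part of these cells in the Erg values was not tested.

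**Figure D2:**
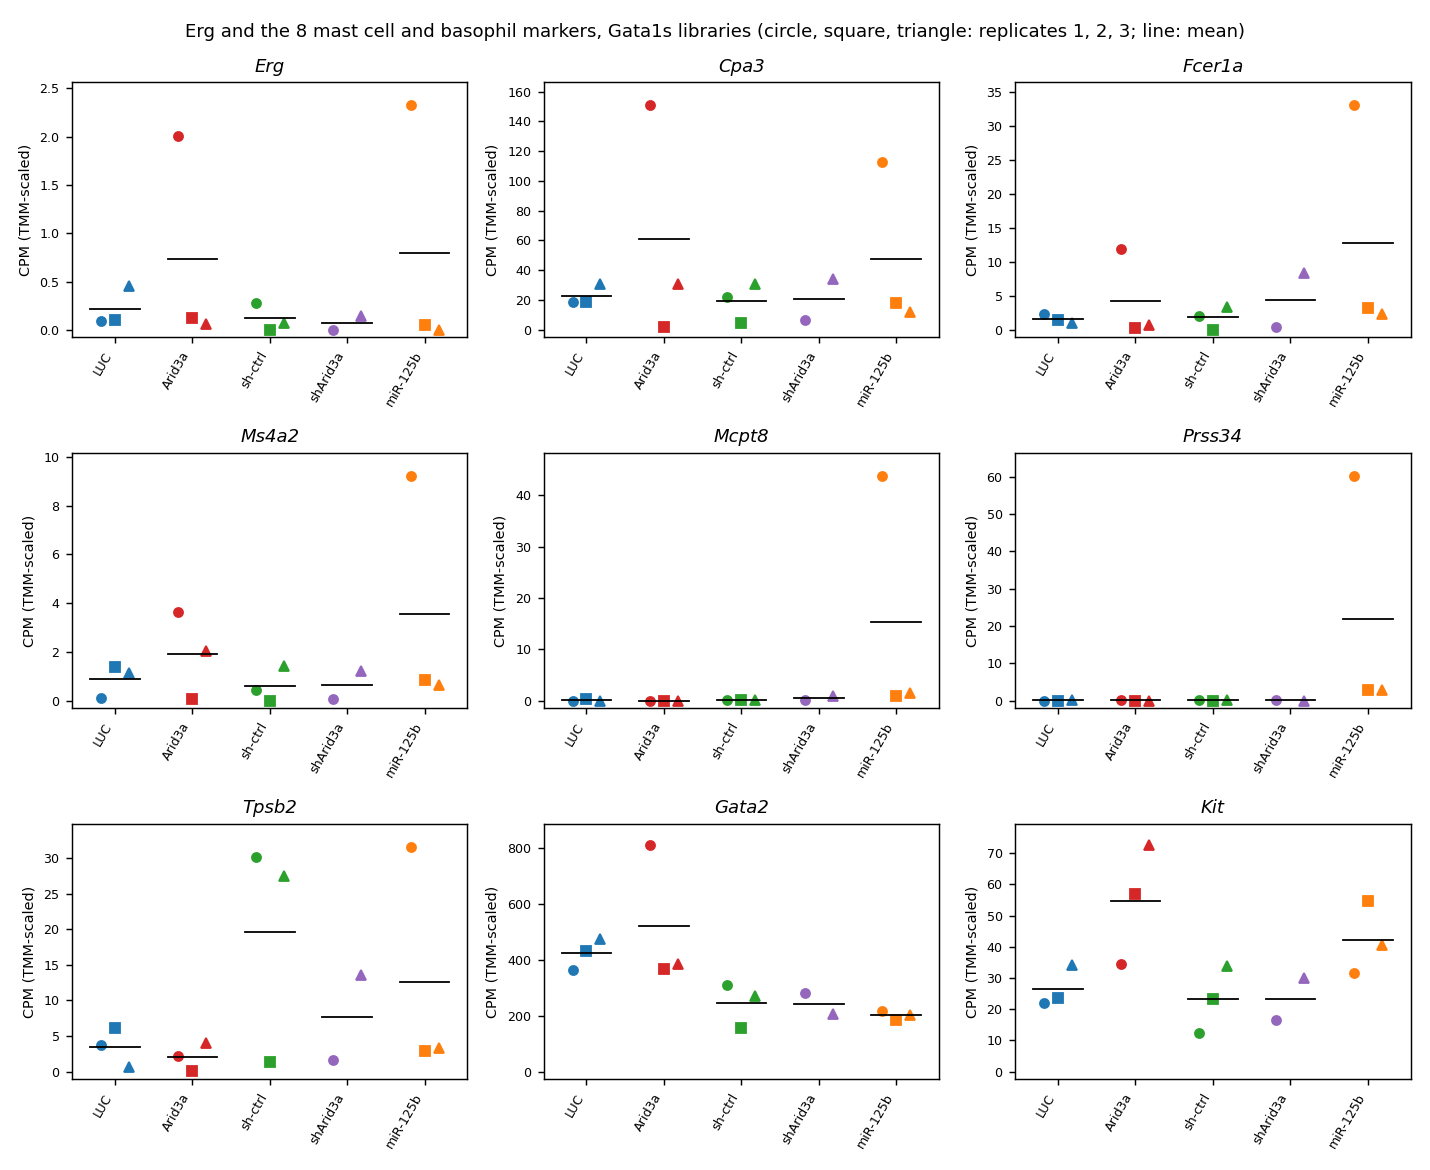
Level in CPM of Erg and of the 8 listed mast cell and basophil genes by Gata1s group, 1 point per library and a line at the group mean (linear axes that differ between panels). The 2 libraries with 73 Erg counts, Arid3a 1 and miR-125b 1, also carry the highest Cpa3, at 150.8 and 113.0 CPM, while Kit is the lowest of its group in both and Mcpt8 is at 0 and 43.7 CPM.

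Spi1 was at 332.9, 268.9 and 259.5 CPM in WT. In LUC it was at 17.8, 17.6 and 22.2 CPM, and in the libraries labelled Arid3a at 25.4, 14.2 and 21.7 CPM. The hairpin and miR-125b table lay between these, from 29.0 CPM in shArid3a 3 to 58.7 CPM in miR-125b 3. No Gata1s library reached the WT range. The summed granulocyte precursor markers moved in the same direction, from 7539 to 10072 CPM in WT against 5.51 to 149 CPM in the Gata1s libraries, and so did macrophage markers, from 322 to 404 against 2.05 to 7.76 CPM. In bulk samples, fewer cells of a type and less RNA per cell cannot be told apart.

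Ets1 was at 31.0, 31.6 and 31.3 CPM in WT, a spread of 0.301 CPM (SD, n = 3). The LUC libraries were at 5.10, 4.40 and 6.31 CPM, and those labelled Arid3a at 2.20, 5.23 and 3.76 CPM. Ets2 was at 26.6, 24.9 and 41.8 CPM in WT and at or below 6.84 CPM in every Gata1s library. Both genes thus lay well under WT in the Gata1s groups. Endothelial cells also express ETS factors. Of the 6 listed endothelial markers, Cdh5 was at 0.260 to 0.321 CPM in WT and 0 elsewhere. Emcn was at 0 to 0.244 CPM in WT and 0 elsewhere, and Stab2 was at or below 0.728 CPM in every library. Kdr was at 11.4, 12.4 and 13.4 CPM in WT and at or below 2.34 CPM elsewhere. Tek was at 3.36, 1.71 and 4.99 CPM in WT, at 8.79 CPM in Arid3a 1 and at or below 2.03 CPM elsewhere. The summed endothelial list was 214 to 249 CPM in WT and 109 to 190 CPM in the Gata1s libraries. It was almost all Pecam1, which blood cells also express, at 198.0 to 230.03 and 108.7 to 180.7 CPM. The part of endothelial cells in the ETS values was not tested.

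The remaining members differed less between groups. Fli1 averaged 134.7 ± 12.1 CPM in WT, 134.1 ± 11.1 in Arid3a, 110.8 ± 12.47 in sh-ctrl, 110.4 ± 6.63 in LUC, 86.7 ± 13.5 in miR-125b (SD, n = 3 each) and 84.7 ± 7.51 in shArid3a (SD, n = 2). The ranges of WT and Arid3a overlapped, as did those of sh-ctrl and LUC, and of miR-125b and shArid3a. Elf1 was highest in Arid3a at 324.9 ± 26.6 CPM and LUC at 305.3 ± 21.6 CPM, whose ranges overlapped. WT followed at 247.3 ± 49.2 CPM and sh-ctrl at 223.9 ± 15.6 CPM. Elf4 averaged 134.9 ± 17.97 CPM in Arid3a, 128.1 ± 22.1 in WT and 120.0 ± 5.18 in LUC, 3 neighbours with overlapping ranges, and 76.7 ± 13.9 CPM in sh-ctrl. For Elf1, Elf4 and Gabpa all 8 libraries of 10 days lay below all 6 libraries of 48 h. Gabpa lost this order when the tables were scaled together. Duration, transgene and table changed together there and cannot be told apart.

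Etv6 averaged 229.3 ± 43.4 CPM in WT, 191.5 ± 9.47 in Arid3a, 164.3 ± 6.51 in LUC, 156.5 ± 9.06 in sh-ctrl, 109.4 ± 6.39 in miR-125b (SD, n = 3 each) and 110.6 ± 10.5 in shArid3a (SD, n = 2). The ranges of WT and Arid3a overlapped, as did those of LUC and sh-ctrl and those of the last pair. Gabpa averaged 99.9 ± 15.1 CPM in WT, 84.1 ± 14.4 in Arid3a and 74.5 ± 5.54 in LUC, with overlapping neighbours, and 49.3 to 53.8 CPM in the other 3 groups. Elf2 ran from 91.3 ± 9.21 CPM in WT to 52.3 ± 13.2 CPM in shArid3a (SD, n = 2). Single libraries are in the plot of levels by group.

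**Figure D3:**
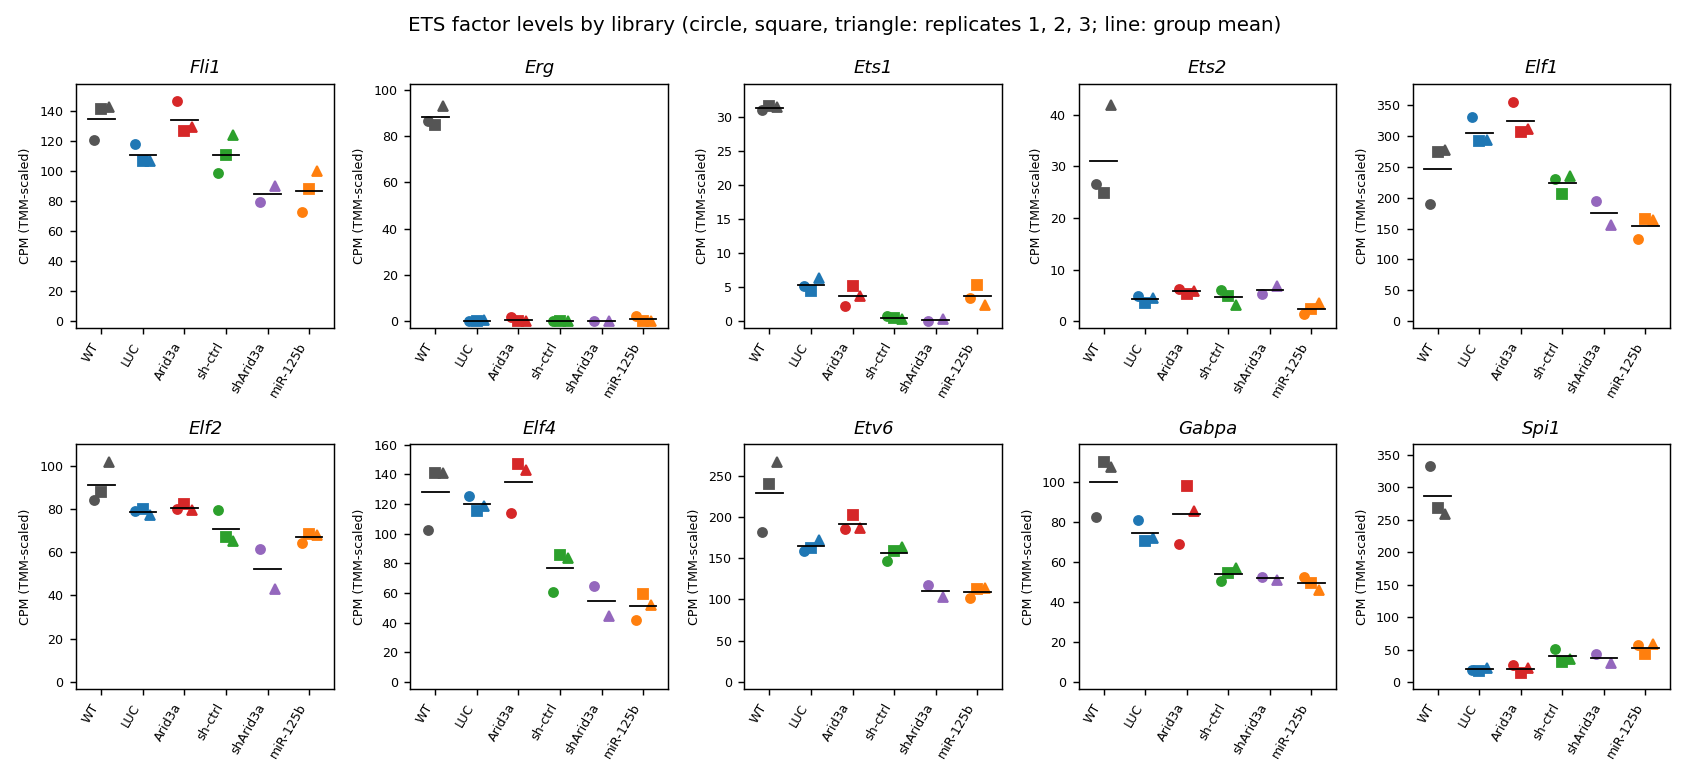
Level of each of the 10 ETS genes in CPM by group, 1 point per library and a line at the group mean (linear axes from 0 that differ between panels). Erg, Ets1, Ets2 and Spi1 have their 3 WT libraries above all 14 Gata1s libraries, and Elf1, Elf2, Elf4, Etv6, Fli1 and Gabpa vary over a narrower range.

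The first tested comparison asked what miR-125b changed against sh-ctrl. Ets1 rose, and Elf1 and Etv6 fell. Ets1 was at 3.34, 5.26 and 2.35 CPM in miR-125b (105, 193 and 93 counts) and at 0.734, 0.527 and 0.317 CPM in sh-ctrl (26, 18 and 13 counts). All miR-125b libraries lay above all sh-ctrl libraries. The log2 fold change was 2.79 (SE 0.620, adjusted p = 0.0142, edgeR quasi-likelihood test). Ets1 is the member whose 3′ untranslated region holds the 8mer printed above.

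Elf1 was at 133.8, 165.0 and 164.1 CPM in miR-125b and 230.1, 206.1 and 235.4 CPM in sh-ctrl, with no overlap. It fell by 0.54 on the log2 scale (SE 0.140, adjusted p = 0.0231). Etv6 was at 102.1, 112.3 and 113.9 CPM against 146.5, 158.8 and 164.1 CPM, also without overlap. It fell by 0.52 (SE 0.118, adjusted p = 0.0154). Etv6 holds a 7mer-m8 and Elf1 holds no match. Over all 14004 genes tested, 24.4% were called, 12.1% higher and 12.2% lower, so 3 of 10 members is near the share among all genes.

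Elf4 lay at the threshold, at 41.9, 59.0 and 52.1 CPM against 60.7, 85.9 and 83.6 CPM, without overlap (log2 fold change -0.59, SE 0.195, adjusted p = 0.0507). It was called under 11 of 16 alternatives, with adjusted p from 0.00722 to 0.150, among them the replicate block (-0.59, adjusted p = 0.0423). DESeq2 called 4 members, Elf4 beside the 3 above, and 31.2% of all genes. Ets2, which holds a 7mer-m8, was at 1.34, 2.45 and 3.51 CPM against 6.01, 4.81 and 3.22 CPM, with overlap (log2 fold change -0.94, SE 0.390, adjusted p = 0.101). Fli1 was at 72.6, 87.9 and 99.6 CPM against 98.6, 110.3 and 123.5 CPM, with overlap (-0.35, SE 0.148, adjusted p = 0.103). Spi1 was at 57.2, 42.5 and 58.7 CPM against 51.4, 31.4 and 35.4 CPM, with overlap (0.42, SE 0.224, adjusted p = 0.185). Erg (2.69, SE 1.70, adjusted p = 0.263) rested on the 73 counts of miR-125b 1. Elf2 (-0.07, adjusted p = 0.746) and Gabpa (-0.13, adjusted p = 0.450) missed the threshold as well. Groups did not overlap in 4 of 10 members, 1 higher and 3 lower, and in 44.9% of all genes, 22% higher and 23% lower. At an unadjusted p under 0.05 there were 6 of 10 members, beside 39.8% of all genes. Without sh-ctrl 3 all 3 calls were lost, with Ets1 at 2.51 (adjusted p = 0.0643), Elf1 at -0.51 (adjusted p = 0.0813) and Etv6 at -0.49 (adjusted p = 0.0614). The Elf1 call was also lost without miR-125b 1 (-0.44, adjusted p = 0.0720).

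**Figure D4:**
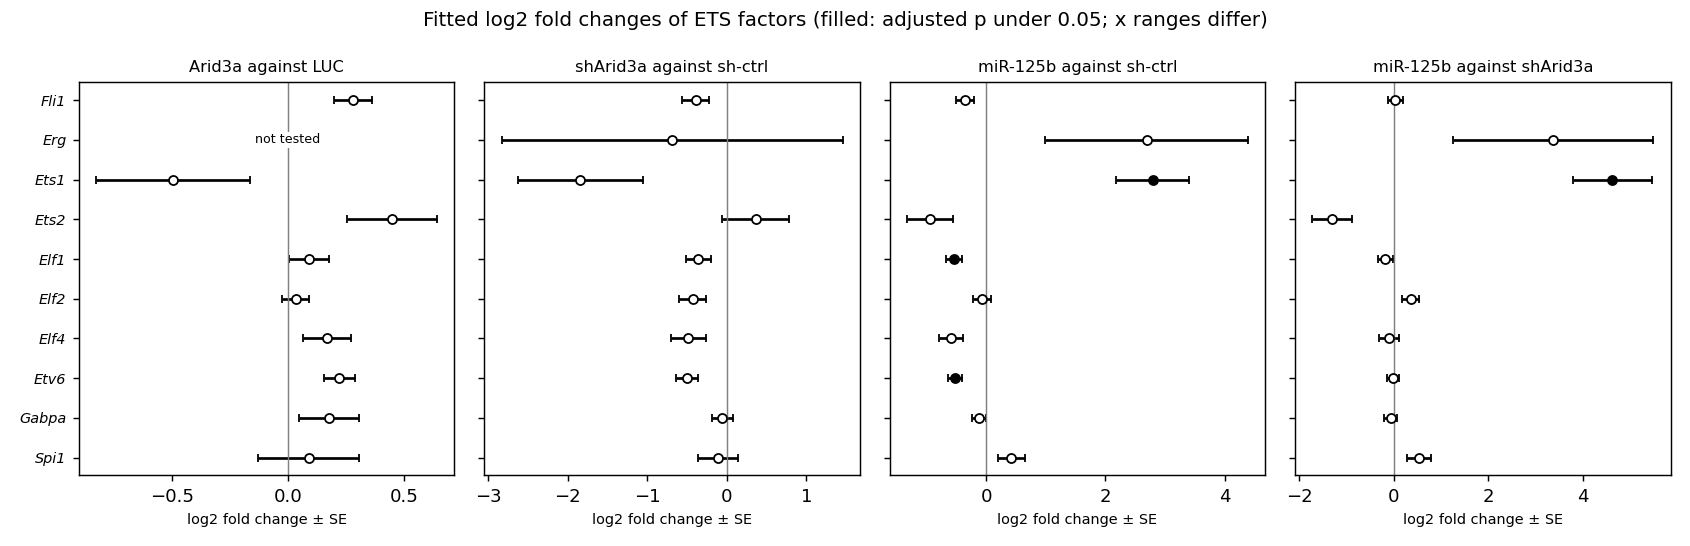
Log2 fold change (x axis, ranges differ between panels) with bars of 1 SE for each ETS gene in the 4 comparisons, with filled points for an adjusted p under 0.05. Ets1 at 2.79, Elf1 at -0.54 and Etv6 at -0.52 are filled in miR-125b against sh-ctrl, and Ets1 at 4.63 in miR-125b against shArid3a.

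The second comparison asked what the Arid3a hairpin changed, with the same sh-ctrl libraries as reference. By the edgeR quasi-likelihood test 0 of 10 members were called, against 0.0857% of all genes, 0.05% higher and 0.0357% lower. At an unadjusted p under 0.05 there were 5 members, beside 25.8% of all genes, and DESeq2 called 1, Etv6, beside 11.4% of all genes. Etv6 was at 118.0 and 103.2 CPM in shArid3a, below all 3 sh-ctrl libraries (log2 fold change -0.50, SE 0.133, adjusted p = 0.101; 0.0115 by DESeq2). Ets1 had 1 and 9 counts, at 0.0272 and 0.265 CPM, also below every sh-ctrl library (-1.84, SE 0.788, adjusted p = 0.177). Its value ranged from -4.10 without shArid3a 3 to -0.97 without shArid3a 1, each of which leaves a single shArid3a library.

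Fli1 was at 79.3 and 90.0 CPM (-0.39, SE 0.167, adjusted p = 0.178), Elf1 at 194.1 and 155.8 CPM (-0.36, SE 0.157, adjusted p = 0.187) and Elf2 at 61.6 and 43.0 CPM (-0.43, SE 0.172, adjusted p = 0.157). With Etv6 and Ets1 these made 5 of 10 members whose shArid3a libraries lay below sh-ctrl. Over all genes the groups did not overlap in 43.8%, and in 22.2% shArid3a was the lower. Gabpa (-0.06, SE 0.132, adjusted p = 0.811) and Erg (-0.69, SE 2.14, adjusted p = 0.865, on 10 counts or fewer in each library) overlapped. Elf4 overlapped too (-0.49, SE 0.221, adjusted p = 0.196), as did Ets2 (0.36, SE 0.425, adjusted p = 0.617) and Spi1 (-0.11, SE 0.251, adjusted p = 0.80). The median over the members was -0.41, beside -0.02 over all genes.

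Set directly against shArid3a, miR-125b was called different in Ets1 alone among the 10. Of all genes 1.35% were called, 0.664% higher and 0.686% lower. The 3 miR-125b libraries lay from 2.35 to 5.26 CPM and both shArid3a libraries under 0.266 CPM (log2 fold change 4.63, SE 0.835, adjusted p = 0.0286). The call was lost without miR-125b 2 (4.28, adjusted p = 0.108), miR-125b 3 (4.87, adjusted p = 0.0511) or shArid3a 1 (3.76, adjusted p = 0.161), and without shArid3a 3 the value was 6.90 (adjusted p = 0.0324). Without either shArid3a library that arm holds 1 library, which is assumed to vary like the other groups. Ets2 was lower in all 3 miR-125b libraries without passing the test (-1.30, SE 0.425, adjusted p = 0.183), and Elf2 was higher in all 3 (0.36, SE 0.172, adjusted p = 0.372). With Ets1 these were the 3 of 10 members whose groups did not overlap, beside 29.8% of all genes, 14.4% higher and 15.4% lower. An unadjusted p under 0.05 was met by 2 members and 14.5% of all genes. Spi1 (0.54, SE 0.254, adjusted p = 0.365) and Erg (3.38, SE 2.12, adjusted p = 0.511) overlapped. Fli1 (0.04), Elf1 (-0.18), Elf4 (-0.10), Etv6 (-0.02) and Gabpa (-0.07) had small log2 differences with adjusted p from 0.659 to 0.977. Of these, Fli1, Elf4 and Etv6 turned sign under at least 1 alternative.

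The third comparison set the libraries labelled Arid3a, in which Arid3a counts were not higher, against LUC at 48 h. By edgeR 0 of 9 tested members were called, and 0% of 13495 genes, while 2885 genes (21.4%) had an unadjusted p under 0.05. Among members these were Fli1 and Etv6, both called by DESeq2, which called 10.1% of all genes. Fli1 was at 146.8, 126.4 and 129.2 CPM against 118.1, 106.5 and 106.7 CPM, above LUC throughout (0.28, SE 0.083, adjusted p = 0.126). Etv6 was at 185.7, 202.4 and 186.3 CPM against 158.8, 162.7 and 171.5 CPM, likewise without overlap (0.22, SE 0.067, adjusted p = 0.132). Ets2 was the third member above LUC in every library, at 6.28, 5.32 and 5.83 CPM against 4.81, 3.55 and 4.41 CPM (0.45, SE 0.196, adjusted p = 0.241). Over all genes the groups did not overlap in 27.6%, 13% higher and 14.6% lower. Without Arid3a 1, the library with 73 Erg counts, 3198 genes in all passed, beside 0 of 13495 with every library. Among them were 4 members, Fli1, Elf4, Etv6 and Gabpa, so the gain was not limited to the members. Ets1 (-0.50, SE 0.333, adjusted p = 0.435) and Spi1 (0.09, SE 0.218, adjusted p = 0.839) overlapped, as did Elf1 (0.09, adjusted p = 0.576), Elf2 (0.03, adjusted p = 0.779), Elf4 (0.17, adjusted p = 0.395) and Gabpa (0.18, adjusted p = 0.474). Erg was not tested for too few counts.

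Other ETS genes were few in these cells. Of 16 listed, 7 passed the filter in the hairpin and miR-125b table, with 1 called higher and 1 lower in miR-125b against sh-ctrl, near the 24.4% called over all genes. Elk3, a factor that works with serum response factor, rose from 38.7 ± 4.90 to 64.5 ± 9.39 CPM (SD, n = 3 each; log2 fold change 0.73, adjusted p = 0.0131). Etv3, a repressor, fell from 24.7 ± 1.64 to 12.4 ± 3.44 CPM (SD, n = 3 each; -0.99, adjusted p = 0.0179). Elk3 was also higher in miR-125b than in shArid3a (1.01, adjusted p = 0.0286), and 0 were called by edgeR for the hairpin or for Arid3a. In those 2 comparisons 2 and 3 genes had an unadjusted p under 0.05, and DESeq2 called 1 and 2, beside 11.4% and 10.1% of all genes.

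Among 18 partner genes, 15 were tested and 4 were called in miR-125b against sh-ctrl, 2 in each direction, near the 24.4% called over all genes. By edgeR 0 were called in the other 3 comparisons, where 6 (hairpin), 4 (Arid3a) and 3 (miR-125b against shArid3a) had an unadjusted p under 0.05 and DESeq2 called 4, 2 and 1, beside 11.4%, 10.1% and 5.26% of all genes. Gabpb2, a partner subunit of Gabpa, fell by 0.94 (adjusted p = 0.00888), and Jun fell by 1.70 (adjusted p = 0.0292). Lmo2, a bridging protein of blood cell factor complexes, rose by 0.73 (adjusted p = 0.0308).

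Of 16 megakaryocyte genes known as Fli1 targets, 7 fell and 1 rose in miR-125b against sh-ctrl, with a median of -0.51 beside -0.03 over all genes. Over all genes 12.2% were called lower and 12.1% higher. Gp1ba, a chain of the platelet von Willebrand receptor, fell from 48.0 ± 7.35 to 15.3 ± 2.11 CPM (SD, n = 3 each; -1.65, adjusted p = 0.00465). Itgb3, the beta chain of the fibrinogen receptor, fell by 1.68 (adjusted p = 0.00605). Gp1bb, another chain of the von Willebrand receptor, rose by 0.76 (adjusted p = 0.0115). Without sh-ctrl 3 the count that fell was 2, Gp1ba and Itgb3. The share of all genes called without that library is not given, so this count is not read as a result about the list. By edgeR 0 of the 16 were called for the hairpin or for Arid3a. At an unadjusted p under 0.05 there were 5 and 3, beside 25.8% and 21.4% of all genes. DESeq2 called 5 lower for the hairpin and 2 higher for Arid3a, beside 11.4% and 10.1% of all genes. Those 5, Gp6, Itga2b, Itgb3, Thbs1 and Vwf, lay below sh-ctrl without overlap. The list median was -0.43 for the hairpin and 0.08 for Arid3a, beside -0.02 and 0.01 over all genes. Gp1bb was higher in miR-125b than in shArid3a (1.09, adjusted p = 0.0221). In that direct comparison the list median was -0.02, beside -0.01 over all genes.

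Of 18 myeloid genes known as Spi1 targets, 13 were tested, and 5 rose and 0 fell in miR-125b against sh-ctrl, with a median of 0.47 beside -0.03 over all genes, of which 12.1% were called higher and 12.2% lower. Lyz2, lysozyme, rose by 1.39 (adjusted p = 0.0204), Elane, neutrophil elastase, by 2.87 (adjusted p = 0.0248) and Fes, a myeloid kinase, by 0.74 (adjusted p = 0.0374). Elane averaged 1.21 CPM in miR-125b, on 63, 35 and 27 counts, against 4, 7 and 7 counts in sh-ctrl. It passed the filter on low counts through its miR-125b libraries and could hardly have been called lower. Its place among the 5 is therefore not evidence of direction. Of the 8 listed granulocyte precursor markers, Mpo, myeloperoxidase, was at 62.1, 26.4 and 36.4 CPM in miR-125b against 0.565, 0.0293 and 0 CPM in sh-ctrl. Ctsg was also higher, at 4.46, 3.19 and 7.20 against 0, 0.820 and 2.93 CPM, and Elane is in both lists. Prtn3 overlapped, at 38.1, 48.0 and 104.0 against 45.8, 68.2 and 94.1 CPM. Csf3r, Ly6g, S100a8 and Camp were at or below 0.159 CPM in both groups. The summed markers overlapped too, at 78.5 to 149 against 46.5 to 97.2 CPM. The part of granulocyte precursors in the 5 genes that rose was not tested. The count of genes called higher was 1 without miR-125b 3, 0 without sh-ctrl 3 and 2 under scaling by library totals. The shares of all genes called under these settings are not given, so these counts are not read as results about the list. Lyz2 (2.52, adjusted p = 0.024) and Fes (1.41, adjusted p = 0.032) were also higher than in shArid3a. By edgeR 0 were called for the hairpin or for Arid3a. At an unadjusted p under 0.05 there were 4 and 0, beside 25.8% and 21.4% of all genes. DESeq2 called 2 for the hairpin, Fcer1g higher and Lyz2 lower, and 0 for Arid3a, beside 11.4% and 10.1% of all genes. The list median was -0.32 for the hairpin and 0.23 for Arid3a, beside -0.02 and 0.01 over all genes.

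Over the 8 libraries of the hairpin and miR-125b table, Elf1 and Etv6 followed each other most closely among the members (Pearson r = 0.914), then Elf4 and Etv6 (0.902) and Elf1 and Elf4 (0.846). These are descriptions of libraries that share groups and a scaling, with no p. The gene most like Fli1 was Ttc39b (r = 0.985), the gene most like Ets1 was Lpcat1 (0.979) and the gene most like Spi1 was Ncf4 (0.980), a subunit of the phagocyte oxidase. For Erg it was Eri3 (0.954), then Cpa3 (0.899), and this rests on miR-125b 1.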

How the data were processed

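Per the labels' protocols, RNA came from a Zymo Quick-RNA preparation and sequencing libraries were made by Illumina's standard procedure. The authors deposited whole-number counts of reads for each gene, not normalized. The submitters' processing notes name fastp, HISAT2 2.0.5, featureCounts and mm10, with the annotation and the use of strand not given in the sources used here. Groups were taken from the labels alone. Each comparison was fitted within a table on all genes with edgeR 4.0.16 in R 4.3.3: filterByExpr, TMM, quasi-likelihood test, Benjamini-Hochberg adjustment over all genes tested, called at an adjusted p under 0.05. Both hairpin groups and miR-125b were fitted together. SE was taken from the log2 fold change and its F statistic, and the test was checked on simulated counts. The members and lists were chosen with earlier results of these data known. All 10 members are named in each comparison, and of each list up to 3 called genes with the smallest adjusted p. Alternatives were DESeq2 1.42.0, other scalings and filters, a replicate block and leaving out each library.

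DESeq2 shares are of all genes fitted, those it gave no adjusted p included as not called. A count of 0 was given a floor of 3 counts, which covers counting error only. Deviations of same-numbered libraries from their group means correlated at 0.427, 0.151 and 0.294 between sh-ctrl and miR-125b, which was read as pairing, from the data and not the labels. Libraries of unlike number in these groups correlated at -0.364 to 0.205, so the highest of them passed the lowest same-numbered value. The tests reported have no block, and the blocked value stands beside the result whose call it changes. With shArid3a same-numbered libraries correlated at 0.431 and 0.161 for sh-ctrl and at 0.237 and 0.200 for miR-125b. The deviations of the 2 shArid3a libraries mirror each other, so these values are not separate observations. Between sh-ctrl 2 and shArid3a 3, of unlike number, the correlation was 0.364. Between LUC and Arid3a same-numbered libraries correlated at 0.158, 0.365 and 0.0084, which was not treated as pairing. These values overlap with those read as pairing, so both readings are uncertain.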

Additional observations from a re-analysis of the deposited data

How the results depend on the processing

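Of 581 values of single members under the alternatives, 555 kept their side of the threshold, 19 gained a call and 7 lost one. No called value turned sign, and 11 values in 7 uncalled comparisons of a member did. Members called by DESeq2 were 2 instead of 0 for Arid3a against LUC and 1 instead of 0 for shArid3a against sh-ctrl, where it called 1359 and 1600 genes in all (10.1% and 11.4%) and edgeR 0 and 12. Scaling by library totals called 5 instead of 3 for miR-125b against sh-ctrl, where it moved the median of all genes from -0.03 to -0.22. Requiring 10 counts in every library called 0 instead of 1 for miR-125b against shArid3a, because Ets1 was then not tested. Leaving out each library gave 0 to 4 members for Arid3a against LUC, 0 to 0 for shArid3a against sh-ctrl, 0 to 4 for miR-125b against sh-ctrl and 0 to 1 for miR-125b against shArid3a. With the replicate block the counts were 0, 0, 4 and 1 in that order, the gain being Elf4, and no other member's call changed. Except for DESeq2, these counts stand without the share of all genes called under the same setting. They describe how far the calls depend on the processing and are not read as results about the members. Of 120 group means under other scalings of the 3 tables, 26 moved by more than the SD between libraries. Depth limits Erg and Ets1 most, with 0 to 26 counts in sh-ctrl and shArid3a libraries.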
